A study of Mus musculus with 6 samples.

Results

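Glucose uptake, glycolysis and glycogen handling were followed through 37 genes in mouse inguinal white adipose tissue (iWAT, the fat pad under the skin of the groin) lacking the RNA-binding protein Celf1 in adipocytes. The genes were listed by name, for their roles in carrying and burning glucose and in storing it as glycogen. The list was made with earlier results of these data known. Of the 37, 36 were among the 16627 genes of the count table, and all 36 passed the filter on low counts that left 16366 genes to test. Ppp1r3c was not among the genes analysed here. RNA was sequenced from 3 libraries of mice with an adipocyte-specific Celf1 knockout (Celf1 AKO) and 3 of control mice without it (Flox control). Which litter a library came from is not given by the labels. The control mice carry the floxed Celf1 allele, fl/fl in the labels, and both groups were kept in the cold at 4 °C for 6 h, so every value describes cold-exposed fat and none describes fat at room temperature. The sources used here give neither the Cre driver nor the ages of the mice, and nothing in the labels ties a library to a single mouse, so a p-value weighs a difference against the spread among libraries, which may in part be technical. The study asked what Celf1 does when inguinal fat turns beige, that is, when heat-producing adipocytes appear in it.

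Glucose enters adipocytes through the carriers Slc2a1 (GLUT1) and the insulin-regulated Slc2a4 (GLUT4), is trapped by hexokinase, and runs down glycolysis to pyruvate, which is burnt in mitochondria or turned into lactate. Adipocytes also take the glycolytic intermediate dihydroxyacetone phosphate to make the glycerol backbone of triglyceride, and keep a small store of glycogen that turns over with feeding and cold. Several steps are run by alternative isozymes from different genes, so the mixture of isozymes in a tissue can differ while the step itself is present.

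Library totals ran from 54835348 to 64979443 counts. Levels are given as CPM, read counts scaled to the library size and its TMM factor, and as FPKM, the deposited values per length, where genes are compared with each other. Celf1 stood at 52.5, 49.8 and 63.0 CPM in the knockout libraries and at 126, 114 and 144 CPM in the controls. The groups did not overlap, and the log2 fold change (knockout over control throughout) was -1.21 (SE 0.14, edgeR adjusted p = 0.122; 0.0174 without Celf1 AKO replicate 3). The tissue label was met by the mature adipocyte markers, all 12 of which were measured. They summed to 56535 to 70384 CPM in the knockout and 62978 to 69567 CPM in the controls. Of the 12, 8 had a negative log2 fold change and 4 a positive one. Adipoq was higher without overlap, at 2591 to 2790 against 2443 to 2566 CPM. Lep was at 41.1, 165 and 101 CPM in the knockout and 142, 568 and 297 CPM in the controls. Its groups overlapped (log2 fold change -1.71, SE 0.60, edgeR adjusted p = 0.324). Beige adipocyte markers were lower without overlap for 6 of 10, at 208 to 467 CPM summed in the knockout against 911 to 988 CPM. Endothelial markers were higher without overlap for 6 of 10 (1080 to 1258 against 619 to 917 CPM summed), Schwann cell markers for 8 of 8 (548 to 792 against 343 to 424 CPM), and neutrophil markers for 2 of 8 (26.2 to 140 against 7.28 to 24.5 CPM), highest in Celf1 AKO replicate 3. Of all genes tested, 9.51% were lower and 7.81% higher without overlap. In bulk tissue, fewer cells of a type and less RNA per cell cannot be told apart. The part of these markers in the results below was not tested.

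No gene of the set passed an adjusted p of 0.05 in edgeR's quasi-likelihood test, where 0.0122% of all genes did (2 genes). At an unadjusted p under 0.05, 10 of the 36 were lower in Celf1 AKO, against 6.17% of all genes tested, and 3 were higher, against 6.75%. Between groups that did not overlap in CPM, 10 of 36 were lower (9.51% of all genes) and 4 higher (7.81%). The lower genes were the regulatory enzyme Pfkfb1, the glycolytic enzymes Tpi1, Pgk1 and Pgam1, the lactate gene Ldhb, the glycerol kinase Gk and the glycogen genes Gys1, Gys2 and Ppp1r3b under both criteria, Slc16a1 by its p alone and Pfkp by lack of overlap alone. Higher under both were Slc2a1, Pfkm and Slc16a3, and Pck1 did not overlap. Among all 36, 24 had a negative log2 fold change, with a median of -0.12 beside -0.02 over all genes. That lean rested on single libraries: without Celf1 AKO replicate 3, 17 of 36 were negative (median 0.01), and without Flox control replicate 1, 18 of 36 (median -0.01).

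**Figure D1:**
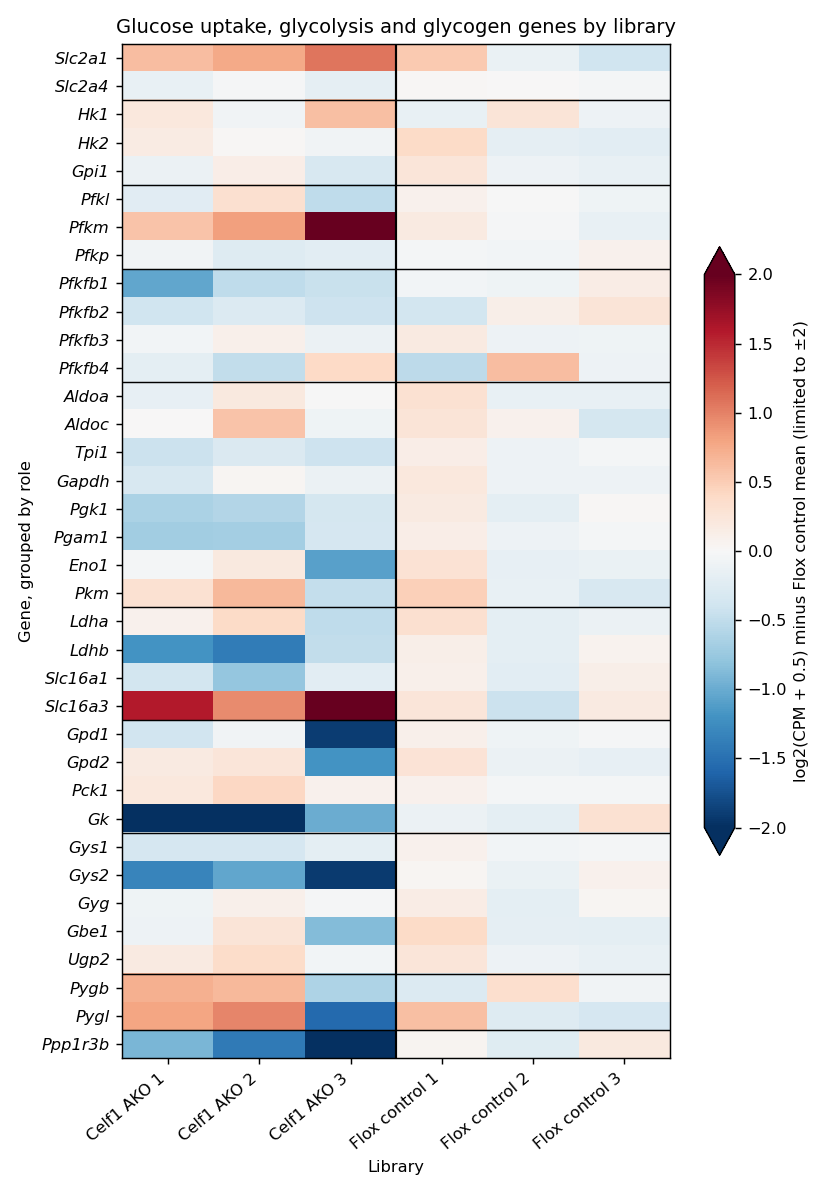
Each row is 1 of the 36 measured genes and each column 1 library, and the colour is log2(CPM + 0.5) minus the Flox control mean of that gene, limited to 2 either way. Gk, Ldhb, Gys2 and Ppp1r3b are blue in all 3 Celf1 AKO libraries and Slc16a3 red in all 3, while Pygl, Gpd1 and Eno1 have their lowest value in Celf1 AKO replicate 3 (-1.56, -1.90 and -1.08).

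In each group, 1 library stood apart for many of these genes. Celf1 AKO replicate 3 was the lowest of the 6 libraries for 15 of the 36 genes, where it was lowest for 17.2% of all genes, and Flox control replicate 1 was the highest for 16, where it was highest for 15.3% of all genes. With that knockout library left out, edgeR called 5 of the 36 lower (1.76% of all genes) and 0 higher (1.43%); at an unadjusted p under 0.05, 10 were lower (12.8%) and 5 higher (10.7%), and 11 were lower (22.6%) and 6 higher (19.3%) without overlap. DESeq2 on all 6 libraries called 5 lower, against 0.947% of all genes, and 1 higher, against 2.09%. The 5 lower genes were Pgam1, Ldhb, Gk, Gys2 and Ppp1r3b in both cases, and the higher one was Slc16a3. The 2 fits share 5 libraries and are not independent of each other.

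**Figure D2:**
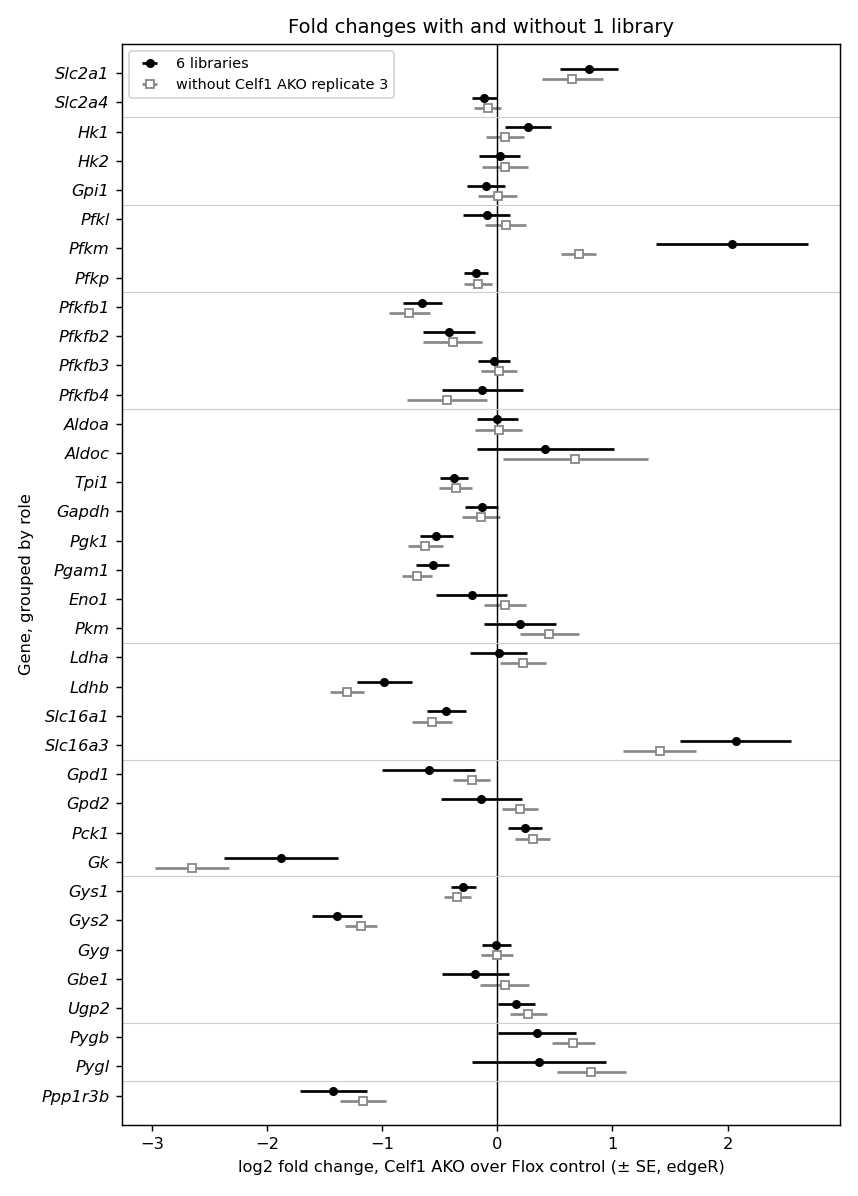
Points are edgeR log2 fold changes of Celf1 AKO over Flox control with their SE, from all 6 libraries (black circles) and without Celf1 AKO replicate 3 (grey squares), for the 36 genes grouped by role. Gk, Ldhb, Gys2 and Ppp1r3b lie below 0 in both, and Pfkm moves from 2.03 to 0.71 when the library is left out.

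The glycogen group held the gene of smallest p in the set. Gys2 (ENSMUSG00000030244; GRCm38 chromosome 6, 142422613 to 142473109, minus strand) encodes the glycogen synthase known from liver, which also occurs in fat. Its level was 30.3, 36.9 and 19.9 CPM in Celf1 AKO and 78.3, 69.6 and 80.9 CPM in Flox control. Every knockout library lay below every control, with the knockout mean at 38.1% of the control mean. The log2 fold change was -1.39 (SE 0.22, edgeR adjusted p = 0.215). The adjusted p was 0.0217 without Celf1 AKO replicate 3, 3.01e-05 with DESeq2, and up to 0.697 over the 19 fits made.

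Ppp1r3b (ENSMUSG00000046794; chromosome 8, 35375739 to 35388139, plus strand) encodes the GL subunit that brings protein phosphatase 1 to glycogen, where the phosphatase activates glycogen synthase. It stood at 45.3, 31.8 and 19.3 CPM in Celf1 AKO and at 88.7, 72.1 and 97.9 CPM in Flox control. The groups were again apart, with the lowest knockout value in replicate 3 as for Gys2. On the log2 scale the fold change was -1.42 (SE 0.29, edgeR adjusted p = 0.227; 0.0366 without Celf1 AKO replicate 3 and 0.00109 with DESeq2, and at most 0.782 over the 19 fits).

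Gys1, the glycogen synthase of muscle and most other tissues, was the more abundant synthase per length in this fat, at 60.4 ± 0.556 FPKM in Flox control against 28.7 ± 2.31 FPKM for Gys2 (SD, n = 3). In counts, Gys1 stood at 175, 175 and 193 CPM in Celf1 AKO and at 235, 215 and 216 CPM in Flox control. Its groups did not overlap, but the difference was a log2 fold change of -0.29 only (SE 0.11, edgeR adjusted p = 0.341). Gys1 shares 310 exonic bases with Ruvbl2 on the other strand, and the sources used here do not give the strand setting of the counting. Because Gys2 differed by more than Gys1, the Gys2 share of the summed FPKM of both was 19.3, 22.6 and 12.4% in Celf1 AKO against 31.5, 31.0 and 34.1% in Flox control. The 3 knockout shares were below the 3 control shares (exact two-sided permutation test, p = 0.1, the smallest that 3 against 3 can give; adjusted p = 0.25 over the 15 shares tested).

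The other enzymes that build glycogen showed no such separation. Gyg, the primer protein on which each glycogen particle starts, was between 86.4 and 110 CPM in all libraries. Ugp2, which makes the sugar donor UDP-glucose, differed by 0.17 on the log2 scale (SE 0.16). Gbe1, the branching enzyme, had one of -0.19 (SE 0.29), and its lowest library was Celf1 AKO replicate 3 at 125 CPM, with 200 to 298 CPM in the other 5.

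Glycogen phosphorylase, which releases glucose units from glycogen, was expressed from Pygl and Pygb. Pygl, the liver isozyme, stood at 403, 463 and 79.4 CPM in Celf1 AKO and at 357, 195 and 185 CPM in Flox control. Knockout replicates 1 and 2 were the highest of the 6 libraries and replicate 3 the lowest, so the fold change of 0.36 on the log2 scale had an SE of 0.58. Pygb, the brain isozyme, was likewise lowest in replicate 3, at 240, 230 and 95.6 CPM against 121, 185 and 140 CPM. Without Celf1 AKO replicate 3 neither gene overlapped between the groups, at log2 fold changes of 0.82 for Pygl (edgeR adjusted p = 0.167) and 0.66 for Pygb (adjusted p = 0.0942). Pygl was also the gene for which that library differed most on the low side, at 0.183 times the mean of the other knockout libraries.

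**Figure D3:**
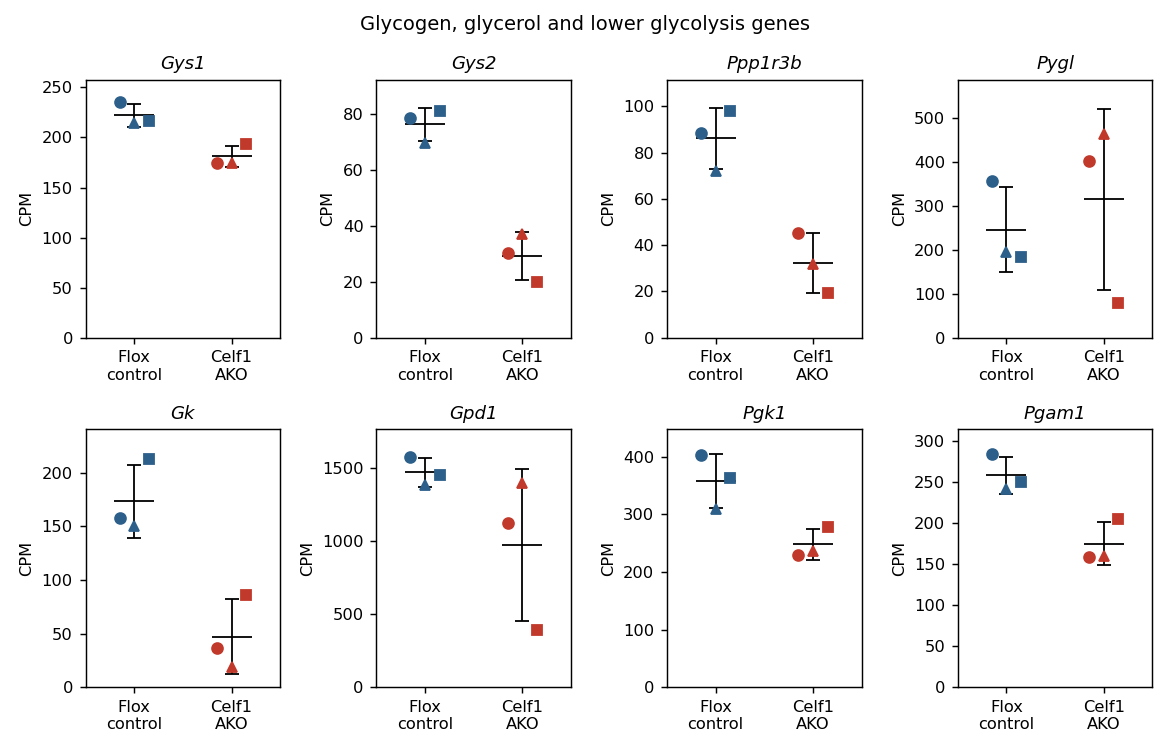
CPM of 8 genes in each library (circle, triangle and square for replicates 1, 2 and 3), with the mean and SD of each group. Gys2, Ppp1r3b, Gk, Pgk1 and Pgam1 are lower in every Celf1 AKO library than in any Flox control library, while Pygl and Gpd1 have their lowest value in Celf1 AKO replicate 3 (79.4 and 394 CPM).

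Glycerol handling gave the largest lower fold change of the set. Gk (ENSMUSG00000025059; chromosome X, 85701937 to 85776819, minus strand) encodes glycerol kinase, which returns glycerol freed by lipolysis to glycerol-3-phosphate and is low in white and high in brown fat. It was at 36.2, 19.0 and 86.0 CPM in Celf1 AKO and at 158, 150 and 212 CPM in Flox control. The highest knockout value, in replicate 3, was still below the lowest control. The log2 fold change was -1.88 (SE 0.49, edgeR adjusted p = 0.259), and the knockout mean was 27.2% of the control mean. Without Celf1 AKO replicate 3 the log2 fold change was -2.65 (adjusted p = 0.0255), and with DESeq2 on all libraries -1.86 (adjusted p = 0.00408, and at most 0.792 over the 19 fits). Of 10 beige markers in the same libraries, 9 also had a negative log2 fold change. Ucp1 was at 79.6, 4.86 and 34.0 CPM in Celf1 AKO and 461, 567 and 495 CPM in Flox control. The exception, Ppargc1a, was at 186, 80.4 and 74.7 CPM in Celf1 AKO and 79.3, 52.4 and 57.4 CPM in Flox control. Its groups overlapped (log2 fold change 0.85, SE 0.36, edgeR adjusted p = 0.380). The part of the beige markers in the Gk difference was not tested.

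Gpd1, the cytosolic enzyme that makes glycerol-3-phosphate from the glycolytic intermediate, was 1 of the most abundant genes of the set, at 514 ± 9.44 FPKM in Flox control (SD, n = 3). Its level was 1122, 1401 and 394 CPM in Celf1 AKO and at 1575, 1385 and 1452 CPM in Flox control. Knockout replicates 1 and 3 lay below every control, replicate 3 by far the more, and replicate 2 lay within the control range, and the log2 fold change of -0.60 (SE 0.40, edgeR adjusted p = 0.560) was -0.22 without replicate 3. Gpd2, its mitochondrial partner in the glycerol phosphate shuttle, was likewise lowest in Celf1 AKO replicate 3 (49.5 CPM, with 102 to 139 CPM in the other 5). The Gpd2 share of the summed FPKM of both genes was 5.42, 4.61 and 5.88% in Celf1 AKO against 4.19, 3.66 and 3.38% in Flox control, without overlap (exact permutation p = 0.1, adjusted p = 0.25). Pck1, which feeds glycerol synthesis from pyruvate and was the most abundant gene of the set per length (2122 ± 15.8 FPKM in Flox control), was at 6676, 7671 and 6159 CPM in Celf1 AKO and at 6150, 5596 and 5612 CPM in Flox control. Its groups were separated only by the narrow gap between knockout replicate 3 and control replicate 1, with a log2 fold change of 0.24 (SE 0.14, edgeR adjusted p = 0.516).

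Of the 4 lactate genes, Ldhb was lower and Slc16a3 higher without overlap, while Ldha and Slc16a1 overlapped. None passed the edgeR test on all 6 libraries after adjustment. Lactate dehydrogenase is a tetramer of the A subunit, which favours lactate formation and comes from Ldha, and the B subunit, which favours lactate use and comes from Ldhb. Ldhb (ENSMUSG00000030246; chromosome 6, 142490249 to 142507957, minus strand) was at 89.3, 77.8 and 147 CPM in Celf1 AKO and at 224, 181 and 216 CPM in Flox control. The groups did not overlap, and replicates 1 and 2 were the lowest. On the log2 scale the fold change was -0.98 (SE 0.24, edgeR adjusted p = 0.251), with adjusted p-values of 0.0217 without Celf1 AKO replicate 3 and 0.0135 with DESeq2, and at most 0.792 over the 19 fits. Ldha, by contrast, was at 1113, 1355 and 734 CPM in Celf1 AKO and at 1301, 909 and 962 CPM in Flox control, with the groups overlapping on both sides (log2 fold change 0.01, SE 0.25). The Ldhb share of lactate dehydrogenase FPKM was 9.80, 7.22 and 21.3% in Celf1 AKO and 18.9, 21.2 and 23.3% in Flox control. Knockout replicates 1 and 2 lay below all controls and replicate 3 among them, so the shares overlapped (exact permutation p = 0.3, adjusted p = 0.5).

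The 2 lactate carriers were measured as well. Slc16a3 (MCT4; ENSMUSG00000025161, chromosome 11, 120948480 to 120960868, plus strand) exports lactate from glycolytic cells. It was low in this tissue, at 9.15, 5.68 and 20.2 CPM in Celf1 AKO and 3.33, 1.90 and 3.14 CPM in Flox control. Every knockout library was above every control, and replicate 3 was the highest. This was a log2 fold change of 2.07 (SE 0.48, edgeR adjusted p = 0.247; 0.000816 with DESeq2, and at most 0.782 over the 19 fits). Without Celf1 AKO replicate 3 it was 1.41 (adjusted p = 0.0615). Neutrophil markers summed to 26.2, 42.5 and 140 CPM in Celf1 AKO and 18.7, 24.5 and 7.28 CPM in Flox control, also highest in replicate 3. The skeletal muscle actin Acta1 was highest there too, at 23.1, 70.6 and 1039 CPM in Celf1 AKO. In Flox control it was at 45.1, 75.2 and 33.5 CPM. The part of neutrophil or muscle RNA in the Slc16a3 difference was not tested.

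Slc16a1 (MCT1), which carries lactate, pyruvate and ketone bodies in either direction, was at 127, 95.6 and 140.9 CPM in Celf1 AKO and at 176, 140.6 and 177 CPM in Flox control. Knockout replicate 3 was just above control replicate 2, which alone made the groups overlap (log2 fold change -0.44, SE 0.17, edgeR adjusted p = 0.348). In both groups Slc16a1 was the main carrier per length, with the Slc16a3 share of their summed FPKM at 6.86, 5.72 and 12.8% in Celf1 AKO and at 1.90, 1.36 and 1.77% in Flox control. The shares did not overlap (exact permutation p = 0.1, adjusted p = 0.25).

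**Figure D4:**
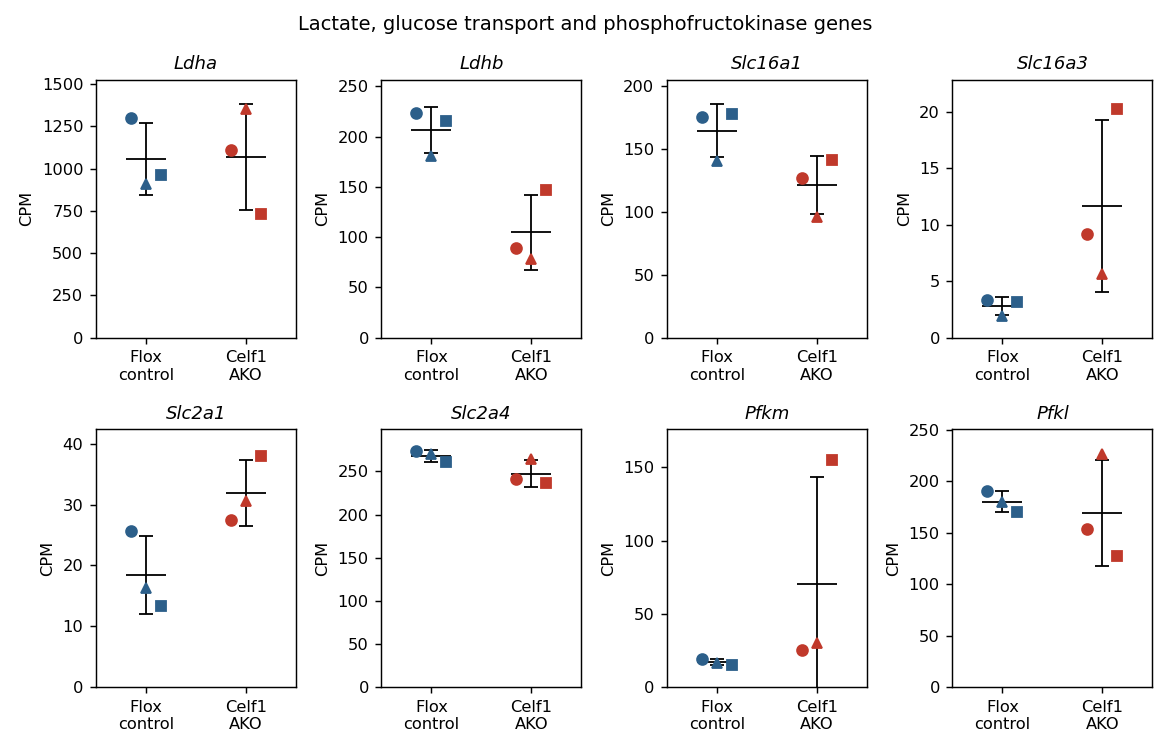
CPM of lactate, glucose transport and phosphofructokinase genes in each library (circle, triangle and square for replicates 1, 2 and 3), with the mean and SD of each group. Ldhb is lower and Slc16a3 and Slc2a1 higher in all 3 Celf1 AKO libraries, Ldha overlaps, and the Pfkm mean in Celf1 AKO rests on replicate 3 at 155 CPM, where the lower error bar is cut off at 0.

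The promoters of the lactate genes and of Gk are shown because Ldhb and Gk were lower and Slc16a3 higher while Ldha overlapped, so that the letters around their transcription starts can be compared. Sequences are from RefSeq on GRCm38.p6, 5′ to 3′ on the strand of the gene, from 250 bases before to 50 bases after the start, and capitals mark ACGTG on either strand, the core letters of hypoxia response elements, extended where the letters form the E box CACGTG that contains it.
Ldha, chr7:46845554-46845853, plus strand: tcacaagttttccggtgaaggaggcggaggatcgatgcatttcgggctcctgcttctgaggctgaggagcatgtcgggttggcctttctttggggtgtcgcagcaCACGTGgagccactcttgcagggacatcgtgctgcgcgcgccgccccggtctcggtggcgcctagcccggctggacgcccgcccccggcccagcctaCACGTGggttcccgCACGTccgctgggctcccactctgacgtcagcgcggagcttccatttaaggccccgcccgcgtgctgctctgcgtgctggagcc
Ldhb, chr6:142507908-142508207, minus strand: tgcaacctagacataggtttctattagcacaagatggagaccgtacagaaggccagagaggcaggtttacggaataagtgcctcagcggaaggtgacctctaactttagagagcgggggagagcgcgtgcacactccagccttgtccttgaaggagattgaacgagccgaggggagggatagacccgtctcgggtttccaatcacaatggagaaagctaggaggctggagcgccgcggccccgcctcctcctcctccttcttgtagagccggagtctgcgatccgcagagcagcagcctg
Slc16a1, chr3:104638414-104638713, plus strand: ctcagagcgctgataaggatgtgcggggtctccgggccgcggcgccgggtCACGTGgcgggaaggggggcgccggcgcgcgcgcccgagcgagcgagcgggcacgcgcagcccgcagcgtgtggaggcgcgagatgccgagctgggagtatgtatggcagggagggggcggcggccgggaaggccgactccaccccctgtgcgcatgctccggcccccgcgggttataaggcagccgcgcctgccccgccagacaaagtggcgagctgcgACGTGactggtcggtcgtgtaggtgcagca
Slc16a3, chr11:120948817-120949116, plus strand: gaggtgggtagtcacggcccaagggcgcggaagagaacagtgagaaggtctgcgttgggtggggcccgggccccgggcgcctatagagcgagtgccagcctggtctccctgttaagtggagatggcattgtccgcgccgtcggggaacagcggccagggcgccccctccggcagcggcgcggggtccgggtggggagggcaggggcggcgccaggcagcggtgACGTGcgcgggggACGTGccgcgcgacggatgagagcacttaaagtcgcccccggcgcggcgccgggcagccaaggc
Gk, chrX:85776770-85777069, minus strand: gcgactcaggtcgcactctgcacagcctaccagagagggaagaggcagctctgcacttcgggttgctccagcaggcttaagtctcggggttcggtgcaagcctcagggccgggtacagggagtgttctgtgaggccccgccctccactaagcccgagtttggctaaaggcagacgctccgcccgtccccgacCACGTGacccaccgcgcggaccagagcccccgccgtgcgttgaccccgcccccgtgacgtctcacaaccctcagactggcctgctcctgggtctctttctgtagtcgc
Of the 2 RefSeq windows of Ldha, the one nearer the GENCODE M21 gene start is printed, with its start 4329 bases from it, and that of Slc16a3 lies 587 bases from the gene start. The Ldha window printed holds 3 such runs, beginning 145, 48 and 34 bases before the start, the earlier pair being CACGTG. The Slc16a3 window holds 2, beginning 27 and 14 bases before the start. Slc16a1 has one 200 bases before and one 20 bases after the start, and Gk has one CACGTG 58 bases before it. The Ldhb window holds none. In all, 33 of the 37 genes matched the RefSeq promoters, with 52 windows. Of these windows, 26 held ACGTG (in 22 genes), against a share of 19.6% of all 32851 promoter windows of the same length. A gene can have more than 1 window, so the windows are not independent promoters. The 22 genes include Ppp1r3c, which has no expression value here. CACGTG, whose matches all hold ACGTG too, was in 8 windows (15.4%, against 7.15%). AAGGTCA, the letters that oestrogen-related receptors are known to bind, was in 3 windows, those of Eno1, Pfkfb1 and Tpi1 (5.77%, against 4.72%), and TGACGTCA, the cAMP response element, in 1 of Ldha (1.92%, against 1.79%). The genes with ACGTG included those higher, lower and overlapping here, and a match is a description of letters, not a bound site. Gys2, Gpd1, Ppp1r3b and Slc2a4 had no entry.

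Among the glucose carriers, Slc2a4 was the main one per length, at 84.0 ± 4.09 FPKM in Flox control against 6.99 ± 1.98 FPKM for Slc2a1 (SD, n = 3). Slc2a4 was at 241, 265 and 236 CPM in Celf1 AKO and at 273, 270 and 261 CPM in Flox control, a narrow range in which knockout replicate 2 lay above control replicate 3 (log2 fold change -0.11, SE 0.11, edgeR adjusted p = 0.684). Slc2a1 (ENSMUSG00000028645; chromosome 4, 119108711 to 119137983, plus strand), the carrier that works without insulin, was at 27.4, 30.5 and 37.9 CPM in Celf1 AKO and at 25.6, 16.2 and 13.4 CPM in Flox control. The groups did not overlap, with knockout replicate 1 just above control replicate 1, and the log2 fold change was 0.79 (SE 0.25, edgeR adjusted p = 0.301). The Slc2a4 share of their summed FPKM was 87.8, 87.6 and 83.6% in Celf1 AKO against 89.7, 93.1 and 94.1% in Flox control, without overlap (exact permutation p = 0.1, adjusted p = 0.25). Slc2a1 is also known as a carrier of endothelium and glia. Summed endothelial markers were at 1080, 1258 and 1245 CPM in Celf1 AKO and 789, 917 and 619 CPM in Flox control. Of the 10 endothelial markers, 9 had a positive log2 fold change and 1, Tek, a negative one (-0.20, SE 0.20). Schwann cell markers summed to 548, 792 and 742 against 424, 343 and 347 CPM. Erythrocyte markers overlapped between the groups, at 598, 557 and 1271 against 588, 413 and 351 CPM. The part of these cell type markers in the Slc2a1 difference was not tested.

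The enzymes of the first steps overlapped between the groups. Hk2, the insulin-regulated hexokinase and the main one here, was at 254, 232 and 217 CPM in Celf1 AKO and at 295, 202 and 197 CPM in Flox control, with overlapping groups (log2 fold change 0.02, SE 0.18). It made up 80.6 to 87.6% of hexokinase FPKM of Hk1 and Hk2 in the knockout and 83.0 to 90.5% in the controls. For Hk1, the housekeeping hexokinase, the log2 fold change was 0.27 (SE 0.20), and for Gpi1, the phosphoglucose isomerase, -0.10 (SE 0.17).

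Phosphofructokinase, the committed step of glycolysis, is built from the liver (Pfkl), muscle (Pfkm) and platelet (Pfkp) subunits. Pfkm (ENSMUSG00000033065; chromosome 15, 98092589 to 98132451, plus strand) was at 25.5, 30.6 and 155 CPM in Celf1 AKO and at 19.5, 16.8 and 15.3 CPM in Flox control. The groups did not overlap, but replicate 3 was 5.52 times the mean of the other knockout libraries, the largest such ratio of the set. The log2 fold change of 2.03 (SE 0.66, edgeR adjusted p = 0.305) was 0.71 without that library (adjusted p = 0.0553, and at most 0.793 over the 19 fits). The same library held 1039 CPM of the skeletal muscle actin Acta1, where replicates 1 and 2 held 23.1 and 70.6 CPM and the controls 45.1, 75.2 and 33.5 CPM. It was likewise the highest library for Phka1, the muscle subunit of phosphorylase kinase (57.1 CPM, with 15.4 to 17.7 CPM in the other 5), and for the muscle fructose bisphosphatase Fbp2 (5.22 CPM, with 0.428 to 1.21 CPM). Acta1 was the only 1 of 12 listed skeletal muscle markers among the genes analysed here. In replicates 1 and 2 Pfkm was also above every control. The part of muscle RNA in the Pfkm values of any library was not tested.

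Pfkl was the main subunit per length in 5 of the 6 libraries, at 54.6 and 64.8% of the summed FPKM in Celf1 AKO replicates 1 and 2, 30.7% in replicate 3 and 57.4 to 60.9% in Flox control. Its counts overlapped, at 154, 226 and 127 CPM in Celf1 AKO and 191, 180 and 170 CPM in Flox control. The Pfkm share was 11.7, 11.3 and 48.5% in Celf1 AKO against 8.05, 7.27 and 6.68% in Flox control, without overlap (exact permutation p = 0.1, adjusted p = 0.25). Pfkp was at 119, 104 and 108 CPM in Celf1 AKO and at 121.5, 120.8 and 133 CPM in Flox control, without overlap and with a log2 fold change of -0.18 (SE 0.11, edgeR adjusted p = 0.499). Pfkp shares 748 exonic bases with Pitrm1 on the other strand, a gene with 27576 counts over the 6 libraries beside 43897 for Pfkp.

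Fructose-2,6-bisphosphate, the strongest activator of phosphofructokinase, is made and broken by the 4 Pfkfb enzymes. Pfkfb3, which mostly makes it, was by far the main one at 204 ± 9.76 FPKM in Flox control (SD, n = 3) and overlapped between the groups, at 943, 1044 and 904 CPM in Celf1 AKO and 1107, 913 and 925 CPM in Flox control. Pfkfb1 (ENSMUSG00000025271; chromosome X, 150588229 to 150643878, plus strand), the isozyme known from liver and muscle, was at 30.9, 44.9 and 46.9 CPM in Celf1 AKO and at 62.0, 60.0 and 70.7 CPM in Flox control. No knockout library reached a control, and the log2 fold change was -0.65 (SE 0.17, edgeR adjusted p = 0.257; 0.0646 without Celf1 AKO replicate 3). Pfkfb1 shares 123 exonic bases with Apex2 on the other strand. The Pfkfb1 share of the family's FPKM was 5.44, 7.05 and 8.28% in Celf1 AKO and 8.995, 10.2 and 11.8% in Flox control, without overlap (exact permutation p = 0.1, adjusted p = 0.25). Pfkfb2 (4.26 to 7.07 CPM) and Pfkfb4 (7.56 to 17.4 CPM) were low in all libraries and overlapped.

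In the lower part of glycolysis, 3 enzymes were lower without overlap. Tpi1, which interconverts the 2 triose phosphates, was at 380, 416 and 382 CPM in Celf1 AKO and at 560, 476 and 496 CPM in Flox control (log2 fold change -0.38, SE 0.12, edgeR adjusted p = 0.301). Pgk1 (ENSMUSG00000062070; chromosome X, 106187100 to 106203699, plus strand), the first ATP-making enzyme of the path, was at 229, 236 and 279 CPM against 403, 310 and 363 CPM (log2 fold change -0.53, SE 0.15, adjusted p = 0.267). Pgam1 (ENSMUSG00000011752; chromosome 19, 41911923 to 41918660, plus strand), the mutase that follows, was at 159, 161 and 205 CPM against 284, 241 and 250 CPM. For Pgk1 and Pgam1 replicate 3 was the highest knockout library, the opposite of its place for Eno1 and Pkm. The log2 fold change of Pgam1 was -0.56 (SE 0.14, edgeR adjusted p = 0.252; 0.0416 without Celf1 AKO replicate 3, 0.0371 with DESeq2 and at most 0.787 over the 19 fits). Near-identical copies (at least 95% identity over 300 bases) held 1.17% as many counts as Pgk1 and 1.60% as many as Pgam1, and adding them left the fold changes at -0.53 and -0.56.

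Gapdh, which sits between Tpi1 and Pgk1, overlapped at 99.5 to 127 CPM in Celf1 AKO and 115 to 144 CPM in Flox control (log2 fold change -0.14, SE 0.14). Its value is uncertain, since 33 near-identical copies in the table held 47.7% as many counts as the gene itself. With their counts added the log2 fold change was -0.10. Aldoa, the main aldolase at 1330 ± 165 FPKM in Flox control (SD, n = 3), had the same mean of 2069 CPM in both groups, and Aldoc was below 1 CPM in every library. Eno1 and Pkm, the enolase and the pyruvate kinase that end the path, were each lowest in Celf1 AKO replicate 3, at 420 and 394 CPM, and had their highest or second highest value in replicate 2 of the same group, at 1019 and 859 CPM. Their log2 fold changes were -0.22 (SE 0.31) for Eno1 and 0.20 (SE 0.31) for Pkm. Near-identical copies of Eno1 held 3.30% as many counts.

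**Figure D5:**
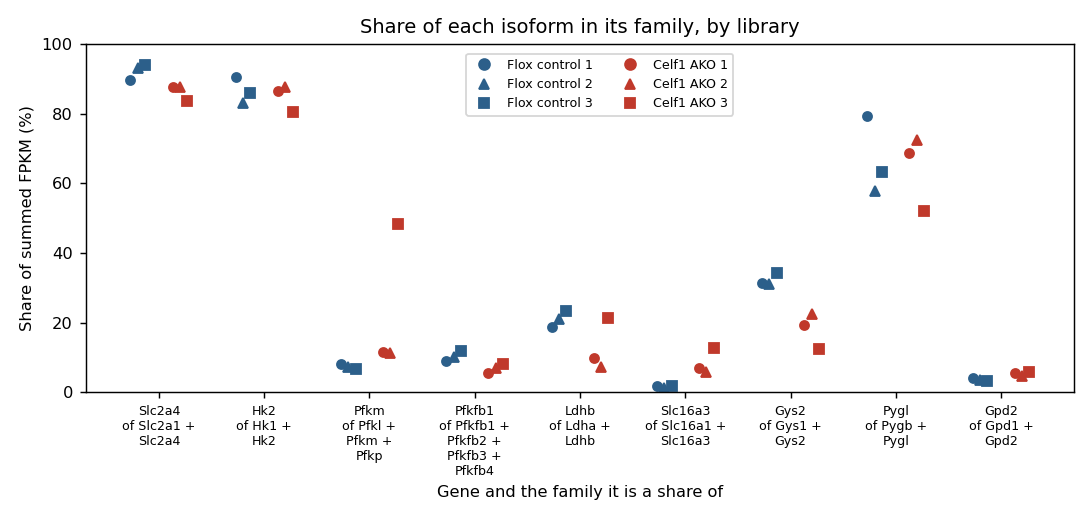
The share (%) of 1 isozyme or carrier in the summed FPKM of its family, in each Flox control (blue) and Celf1 AKO (red) library, with the marker shape giving the replicate. Shares of Slc2a4, Pfkfb1 and Gys2 are lower and those of Pfkm, Slc16a3 and Gpd2 higher in all Celf1 AKO libraries, while Hk2, Ldhb and Pygl overlap.

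In all, 15 shares of isozymes or carriers were compared, and 6 did not overlap between the groups. Of all genes tested, 9.51% were lower and 7.81% higher without overlap in CPM. The shares reuse the values of the genes above, and shares within 1 family depend on each other, so they are not separate results. Those 6 shares had the smallest p the design allows, 0.1, and none passed after adjustment (0.25). The difference was largest for Pfkm, at 16.5 percentage points, which was 4.20 points without Celf1 AKO replicate 3. For Gys2 it was -14.1 points.

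Genes of the same pathways outside the set were taken from 8 lists with 119 entries, of which 108 were tested and 11 were not among the genes analysed here. None passed the edgeR test after adjustment; at an unadjusted p under 0.05, 9 were lower and 12 higher, with a median log2 fold change of -0.03 beside -0.02 over all genes. Of all genes tested, 6.17% were lower and 6.75% higher at that threshold, the background for these counts and for those of each list. DESeq2 called Esrra and Mlx lower and Phkg1 higher, and without Celf1 AKO replicate 3 the genes edgeR called included Esrra, Pgp and Eno2, lower, and Txnip, Epm2a and Slc2a13, higher. Of 16 genes that control glucose use, 2 were lower and 4 higher at that threshold. Esrra, a nuclear receptor for genes of oxidative metabolism, was at 39.98, 37.98 and 53.1 CPM in Celf1 AKO and 94.9, 80.0 and 93.0 CPM in Flox control, without overlap (log2 fold change -1.03, SE 0.15, edgeR adjusted p = 0.215; 0.0174 without Celf1 AKO replicate 3). Mlx, the partner of the glucose-sensing factor ChREBP, had a log2 fold change of -0.78 (SE 0.21, adjusted p = 0.260). Txnip, which is induced by glucose and restrains its uptake, was at 3059, 3251 and 1294 CPM in Celf1 AKO and 1554, 1302 and 1026 CPM in Flox control. Only replicates 1 and 2 of the knockout stood above the controls (log2 fold change 0.97, SE 0.34, edgeR adjusted p = 0.327; 1.28 and 0.0282 without Celf1 AKO replicate 3). The insulin-restrained factor Foxo1 was higher without overlap, by 0.49 on the log2 scale (SE 0.17, adjusted p = 0.312).

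Among 22 tested glycogen genes outside the set, 2 were lower and 4 higher at an unadjusted p under 0.05. Phkg1, the catalytic subunit of muscle phosphorylase kinase, was at 6.06, 7.07 and 13.6 CPM in Celf1 AKO and at 3.34, 2.75 and 1.81 CPM in Flox control, without overlap (log2 fold change 1.76, SE 0.38, edgeR adjusted p = 0.227). Like Pfkm it was highest in replicate 3, with a log2 fold change of 1.32 without it (adjusted p = 0.0572). The log2 fold change was 0.51 (SE 0.16) for the phosphoglucomutase Pgm2 and, for the glycogen phosphatase Epm2a, 0.80 (SE 0.27; 1.05 without Celf1 AKO replicate 3, edgeR adjusted p = 0.0352). Ppp1r3d, another subunit that targets phosphatase to glycogen, had one of -0.62 (SE 0.24), the same sign as Ppp1r3b.

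Of 14 genes for the entry of pyruvate into mitochondria, 3 were lower and 0 higher at an unadjusted p under 0.05. These were Dld, at 407 to 424 CPM in Celf1 AKO and 475 to 638 CPM in Flox control, Pdhx, at 68.2 to 85.5 against 92.3 to 115 CPM, both of the pyruvate dehydrogenase complex, and Pdpr, a regulator of its phosphatase (log2 fold change -0.72, SE 0.23). All 3 were without overlap, as were 9.51% of all genes in that direction. Of 19 genes between the insulin receptor and glucose uptake, 1 was lower and 2 higher, each with overlapping groups: the kinase subunit Pik3r1 (log2 fold change -0.67, SE 0.21), the receptor substrate Irs2 (0.63, SE 0.21) and Tbc1d1 (0.40, SE 0.17). In gluconeogenesis and glycerol handling, 1 of 11 was lower, the phosphatase Pgp (log2 fold change -0.81, SE 0.25; with Celf1 AKO replicate 3 left out -1.14, edgeR adjusted p = 0.0282), and 1 higher, Fbp2, which rested on replicate 3. In the pentose phosphate pathway 1 of 9 was higher, Rbks (0.52, SE 0.21), and among 7 other glucose transporters and 10 other glycolytic genes none reached that threshold.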

How the data were processed

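Per the labels, 3 Celf1 AKO and 3 Flox control libraries were made from inguinal fat after cold. The authors deposited read counts per gene, not normalized, and, for the same 6 libraries and 16627 genes, FPKM values. HISAT2, RSEM 1.3.1 and the builds GRCm38 and mm10 appear in the submitters' processing notes, without their roles; the sources used here do not give the annotation or the strand setting. Tested on the values, each FPKM is the count over 1 length per gene and 1 factor per library, which lay 0.983% above the library total in Celf1 AKO replicate 3 and within 0.0301% in the others. Gene names and positions came from GENCODE M21 (GRCm38): 16528 identifiers matched, 99 did not.

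Counts were tested with edgeR 4.0.16 in R 4.3.3 (TMM, default expression filter, which removed 261 genes, robust quasi-likelihood F test, genotype as the only term, 6 libraries), with Benjamini-Hochberg adjustment over all 16366 genes and calls at an adjusted p under 0.05. A gene at 1 CPM rested on 54.9 to 67.8 counts. CPM use the TMM factors and errors are SDs. Shares came from the deposited FPKM and were compared by exact two-sided permutation. Alternatives were other factors and filters, DESeq2 1.42.0, limma 3.58.1 with voom or on log2(FPKM + 1) and log2(FPKM + 0.1), the replicate number as a block, leaving out each library, and, chosen after seeing the data, lack of overlap without each library and counts summed with near-identical copies found with blastn 2.17.0. The edgeR procedure was also run on simulated counts, drawn for each gene independently and with no library standing apart. That run cannot show how the test behaves where 1 library stands apart, as in these data. The genes of the set and all lists were chosen with earlier results of these data known. Every gene of the set is named; library values are given for those with an unadjusted p under 0.05, with groups that do not overlap, or among 13 listed by name (Ppp1r3c, without values, among them), and for others beside them, chosen after their values were seen. Up to 4 genes of smallest p under 0.05 are named per other list. By that limit Gaa, Gsk3a and Mlxip were left out, and Ppargc1a is named only as a beige marker. Genes named as called in other fits, and Phka1, were named after their values were seen. A gene of the other lists called in 1 alternative fit is not reported here.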

Additional observations from a re-analysis of the deposited data

How the results depend on the processing

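Genes called numbered 2 over all genes. The count was 0 with library size only, 0 with limma-voom, 10 with quality weights, 0, 0 and 1 in the FPKM fits (log2(FPKM + 1), log2(FPKM + 0.1), no filter), 497 with DESeq2, and 0 to 527 when 1 library was left out, the highest without Celf1 AKO replicate 3. Of the 36 genes, 0 were called, 6 with DESeq2 and 0 to 5 with 1 library left out; those higher at an unadjusted p under 0.05 ran from 1 (without Flox control replicate 2) to 5 (without Celf1 AKO replicate 3). Other pathway genes called were 0, with 3 by DESeq2, 1 with quality weights and 0 to 7 with 1 library left out. The Celf1 log2 fold change passed with DESeq2 (-1.19), with quality weights (-1.25) and without Celf1 AKO replicate 3, with a range of -1.32 to -1.12 over single libraries left out.

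With the replicate block, 12 genes were called over all genes, 0 of the 36, and Celf1 passed at -1.21. Deviations of same-numbered libraries correlated at 0.08, -0.05 and 0.21, so the numbers were not taken to pair them. The cause of these shifts was not tested.

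Genes near 0 changed sign. With quality weights, log2 fold changes were 0.023 for Gpi1, 0.0012 for Pfkl, 0.049 for Pfkfb3, 0.087 for Aldoa, 0.0035 for Eno1, 0.090 for Gpd2, 0.063 for Gyg and 0.047 for Gbe1. Aldoa was at 0.022 with RLE factors, 0.015 with upper-quartile factors, 0.013 with at least 1 CPM in 3 libraries, 0.022 with DESeq2, 0.0052 with limma-voom and 0.0084 with the replicate block. Gyg was at 0.015, 0.0078 and 0.0059 with those factors and that filter, and 0.015 with DESeq2. Ldha was at -0.013 with limma-voom, -0.024 in all 3 FPKM fits and -0.015 with the replicate block. With 1 library left out, the ranges were -0.088 to 0.23 for Hk2, -0.22 to 0.032 for Gpi1, -0.36 to 0.073 for Pfkl, -0.089 to 0.067 for Pfkfb3, -0.44 to 0.26 for Pfkfb4, -0.11 to 0.16 for Aldoa, -0.17 to 0.79 for Aldoc, -0.48 to 0.068 for Eno1, -0.070 to 0.47 for Pkm, -0.20 to 0.22 for Ldha, -0.37 to 0.20 for Gpd2, -0.10 to 0.071 for Gyg, -0.46 to 0.062 for Gbe1 and -0.026 to 0.82 for Pygl. Differences of shares ranged from -3.43 to 0.449 points for Hk2, -16.9 to 0.152 for Pfkl, -0.398 to 0.349 for Pfkfb4, -0.000109 to 0.00445 for Aldoc and -6.95 to 3.79 for Pygl. The 13 genes that passed an unadjusted p under 0.05 kept their direction in every fit. They were picked for a difference in these same libraries, which all the fits reuse, so this is no independent support. Depth limits few genes, since the smallest count of a set gene was 8, for Aldoc.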

Other observations

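Celf1 is known to bind GU-rich elements in the 3′ untranslated regions of mRNAs. The letters UGUUUGU, searched on the transcript strand in the 3′ untranslated region of each gene's longest coding transcript (GENCODE M21), were found in 5 of the 36 measured genes (13.9%): Gpi1, Hk2, Ppp1r3b, Slc16a1 and Tpi1. They were found in 25.7% of 13772 tested coding genes with such a region. The regions of the set were shorter, with a median of 815.5 bases against 958.5 bases, and held 0.254 matches per 1000 bases against 0.314. For each gene only the transcript of longest coding sequence was searched. Its region can be short, as for Pfkfb2 (68 bases) and Pfkfb3 (147 bases), and matches in other transcripts were not counted. A match is a description of letters in the annotation and says nothing of binding in this tissue.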
